A study of Mus musculus with 6 samples.

Results

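The clustered protocadherins are the genes of 3 neighbouring clusters on chromosome 18, named alpha, beta and gamma, and they were taken as all gene names of the array that start with Pcdha, Pcdhb or Pcdhg. By this rule 36 genes, measured with 40 probes, were members out of 37074 gene names, 7 of them in the alpha, 22 in the beta and 7 in the gamma cluster. The probes of the alpha cluster lay between positions 37114742 and 37347294 of chromosome 18 (mm9, the build of the files), those of the beta cluster between 37427011 and 37680728, and those of the gamma cluster between 37823813 and 38001437. A reference table of mouse genes lists 58 such genes, 14 in alpha, 22 in beta and 22 in gamma, so that the beta cluster was covered in full by name, whereas Pcdhgc3, Pcdhgc4 and most gamma A and B genes had no probe under their own name and were not analysed here.

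Male C57BL/6J DIO mice, which are mice made obese by diet, had been fed a high-fat diet (HFD, 60 kcal% fat) for 16 weeks from an age of 6 weeks. A group of 3 received GSK-J4 at 30 mg kg−1 and the other 3 received vehicle, by intraperitoneal injection according to the methods, with a different mouse for each replicate. Both groups thus shared strain, sex and diet, and no lean group was among the arrays. GSK-J4 is a small molecule that inhibits the Kdm6 demethylases, the enzymes that remove trimethylation from lysine 27 of histone H3 (H3k27me3). The hypothalamus was taken at ZT 6 h, which counts the hours since lights on. The design text places the tissue on day 4, whereas the paper describes a 21 d course and does not say to which day the arrays belong. RNA of each mouse was hybridized to 1 Agilent array and read in 1 colour.

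Protocadherins are cell surface proteins of the cadherin superfamily. In the alpha and gamma clusters each gene has a variable exon with a promoter of its own, which encodes the extracellular, transmembrane and first intracellular parts, and this exon is spliced to constant exons that all genes of the cluster share and that encode the common end of the cytoplasmic tail. The beta genes have a single exon each and no constant part. Single neurons choose a few promoters of each cluster, largely at random, whereas the C-type genes at the end of the alpha and gamma clusters are used by many neurons, and the resulting sets of proteins bind like sets on other membranes and let the branches of 1 neuron recognize and avoid each other. Promoter choice depends on DNA methylation and on looping by CTCF and cohesin. In a piece of tissue such as the hypothalamus, a probe reads the sum over all cells, and fewer cells that use a gene cannot be told apart from less RNA per cell.

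The arrays labelled vehicle lay on slide 1 and were scanned together, and those labelled GSK-J4 lay on slide 2, so that slide, scan and group cannot be told apart for any value given here. The arrays labelled GSK-J4 were dimmer, where 57.7% to 58.7% of all probes were flagged as above background, as opposed to 62.8% to 63.6% for vehicle. Vehicle replicate 1 stood apart in markers of the choroid plexus (8 of 8 genes tested, 0 called), with a median log2 signal of 12.58 against 7.57 to 8.77 on the other arrays. Of 10 hypothalamic markers, 6 were tested, with Npy (0.42, adjusted p = 0.024) and Pomc (0.86, adjusted p = 0.021) called higher with GSK-J4 by limma, on the log2 scale. Hcrt (0.81, adjusted p = 0.059), Agrp (0.1) and Oxt (0.09) were not called. Hcrt lay between 4.72 and 5.98 and Agrp between 4.43 and 5.2. Both are near the lowest signals flagged as well above background, 3.79 to 4.64 by array, and Agrp was so flagged on only 2 GSK-J4 arrays. Hdc differed by -0.51 (adjusted p = 0.2), with all GSK-J4 arrays lower. Sim1 and Nkx2-1 were well above background on 0 arrays, and Avp and Pmch were so on vehicle replicate 1 and GSK-J4 replicates 1 and 3 only. Of markers of neurons, 10 of 10 were tested, with a median log2 signal of 14.42 to 14.52 on the vehicle arrays and 13.89 to 14.46 on the GSK-J4 arrays. Gene by gene, the differences of these markers were positive for 5 and negative for 5, with a median of 0.01, and 1 was called lower by limma. Of 7 astrocyte markers 1 was called higher, and none of the tested markers of oligodendrocytes, microglia and endothelium was called. Over all genes 9.02% were called higher and 7.8% lower. The part of these differences in the results that follow was not tested beyond the values given with them.

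The first question was which members could be measured. A probe counts here as detected when the scanner software flagged it as well above background, and a gene was tested when a probe was detected on all 3 arrays of at least 1 group. In the vehicle group 30 of the 36 genes were detected on all 3 arrays (83.3%), and in the GSK-J4 group 25 (69.4%). Over all gene names of the array these shares were 59.3% and 54.9%. The loss was in the beta cluster, from 20 to 17 of 22 genes, and in the gamma cluster, from 4 to 2 of 7, whereas 6 of 7 alpha genes were detected in both groups. Pcdhac2 and Pcdhga9 are counted here under their own names, although their probes list records of several genes of the cluster. The gamma genes detected on all GSK-J4 arrays were Pcdhgc5 and Pcdhga9. Single arrays of the vehicle group detected 30 or 31 members and those of the GSK-J4 group 27 or 28. With the weaker flag for a signal that is positive and significant, 32 members passed in the vehicle group and 32 in the GSK-J4 group, so the lower number of detected genes depended on the flag. The dimmer scan of slide 2 moved with it, and its part was not tested.

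**Figure D1:**
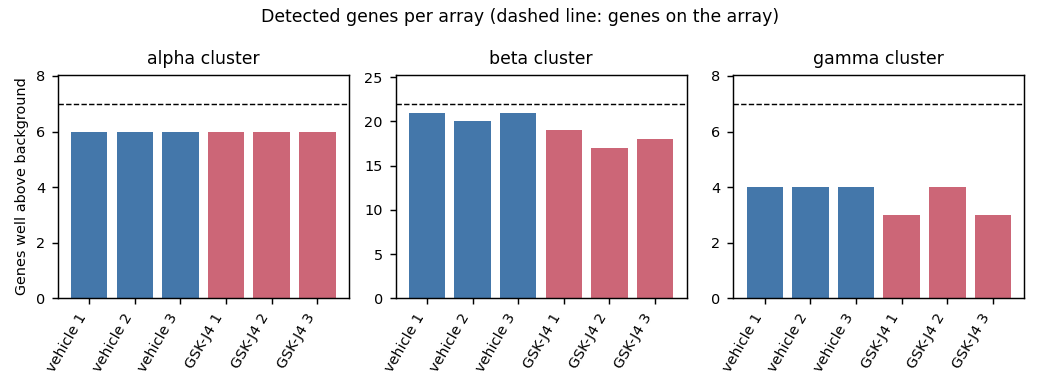
Number of genes of each cluster (y axis) with a probe well above background on each of the 6 arrays (x axis), vehicle in blue and GSK-J4 in red, with a dashed line at the number of genes on the array. The alpha bars all stand at 6, whereas the beta bars stand at 20 or 21 on the vehicle and at 17 to 19 on the GSK-J4 arrays.

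The members that were not detected on every array differed in how many arrays detected them. Pcdhac1, the first C-type gene of the alpha cluster, Pcdhb1 of the beta cluster and Pcdhga5, Pcdhga10 and Pcdhga12 of the gamma cluster were well above background on 0 of 6 arrays. Pcdhac1 had log2 signals of 1.96, 1.92 and 1.84 on the vehicle and 1.88, 1.87 and 1.85 on the GSK-J4 arrays, and Pcdhga12 lay between 1.91 and 2.1. The signals of Pcdhac1 and Pcdhga12 had no level that could be compared. Pcdhga5 and Pcdhga10 passed the weaker flag on all 3 GSK-J4 arrays, and on 3 and 2 vehicle arrays. With that flag as the filter Pcdhga5 differed by 0.96 (adjusted p = 0.15 by limma) and Pcdhga10 by 1.04. Pcdhga10 passed that filter only through the GSK-J4 group, where it was higher, so no p is given for it. Before normalization its signals overlapped, at 12.5, 9.12 and 5.39 on the vehicle and 7.36, 11.3 and 9.46 on the GSK-J4 arrays. Both are differences of dim signals. Pcdhb11 was detected on 2 of 3 vehicle arrays and 0 GSK-J4 arrays, and was not tested. Another 5 genes passed through the vehicle group alone, which were Pcdhb2 and Pcdhga1 (detected on 2 of 3 GSK-J4 arrays), Pcdhb8 and Pcdhgb1 (on 1) and Pcdhb19 (on 0). Pcdhb19 had log2 signals of 4.57, 4.5 and 4.32 on the vehicle arrays and of 4.38, 4.05 and 2.03 on the GSK-J4 arrays, where it was not well above background. The lowest measurable signal on those arrays leaves no bound above 1 for its ratio, and no fold is given. The 25 remaining genes, 6 alpha, 17 beta and 2 gamma, were well above background on all 6 arrays.

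GSK-J4 was then compared with vehicle. A difference is given as the log2 difference of the group means of quantile normalized signal, GSK-J4 minus vehicle, with its standard error from limma and a p-value adjusted by the Benjamini-Hochberg method over all 22107 genes tested. With n = 3 against 3, the exact permutation test of a single gene has a smallest possible two-sided p of 0.1. With the adjusted threshold set at 0.05, 0 of the 30 members tested were higher with GSK-J4 and 1, Pcdhb16, was lower, by limma. Over all genes tested 9.02% were called higher and 7.8% lower. At an unadjusted p of at most 0.05 by limma, 2 members (Pcdha9 and Pcdhgc5) were higher and 4 (Pcdhb7, Pcdhb15, Pcdhb16 and Pcdhga9) were lower. Over all 22107 genes tested, 4566 were higher and 3523 lower at that p. At the thresholds of the study, a fold change of 1.5 and an unadjusted p of 0.05, 0 members passed in either direction with limma's p and 0 with the methods' t-test. With limma's p these thresholds were passed by 4.84% of all genes upwards and 6.4% downwards. With the methods' t-test they were passed by 734 of the 22107 genes upwards and 972 downwards. Of the members tested, 5 had all 3 GSK-J4 arrays above all 3 vehicle arrays and 4 had them all below, beside 25.5% and 20% of all genes.

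Among the 25 members measured on all 6 arrays, 12 had a positive and 13 a negative difference, with a median of 0 beside 0.05 over the 20210 genes measured on all arrays. The differences thus lay on both sides of 0 in the family as a whole and within each cluster. The median over the tested members was -0.05 in the alpha (6 genes), 0.01 in the beta (20 genes) and -0.02 in the gamma cluster (4 genes). Over the genes measured on all arrays it was -0.05, 0.03 and 0.16, the last from a pair of genes that lay on opposite sides of 0.

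**Figure D2:**
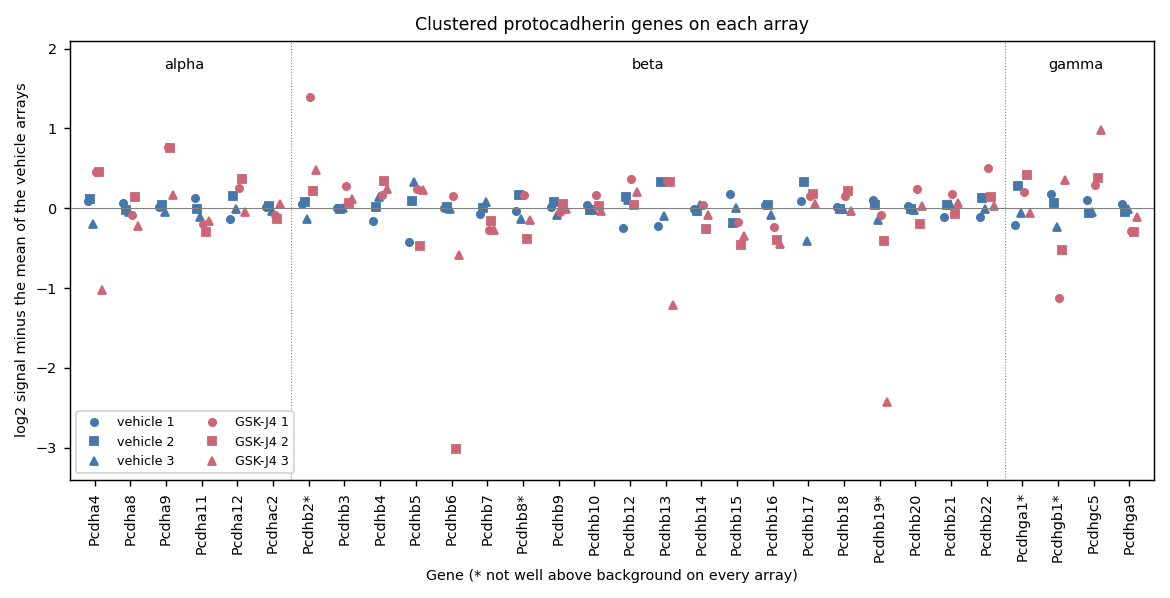
Log2 signal of each tested gene on each of the 6 arrays as the difference from the mean of its 3 vehicle arrays (y axis), by gene in cluster order (x axis), vehicle in blue and GSK-J4 in red, with a symbol for each replicate. Most points lie close to 0, and the GSK-J4 points far below it are single arrays, such as replicate 2 for Pcdhb6 (6.69) and replicate 3 for Pcdha4 (6.18) and Pcdhb13 (6.3).

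In the alpha cluster, none of the 6 tested genes passed an adjusted p of 0.05, and 1 passed an unadjusted p of 0.05. Over all 22107 genes, 4566 were higher and 3523 lower at that unadjusted p. Pcdha9 had log2 signals of 7.13, 7.16 and 7.07 on the vehicle arrays and of 7.89, 7.87 and 7.28 on the GSK-J4 arrays. All GSK-J4 arrays lay above all vehicle arrays, but replicate 3 was much closer to them than the other two. The difference was 0.56 (SE 0.18, 1.47-fold), with an adjusted p of 0.079 by limma and an exact permutation p of 0.1. Without GSK-J4 replicate 3 it was 0.76 (adjusted p = 0.027), and with the GC trend removed 0.31 (adjusted p = 0.29). Before normalization its signals were 197, 222 and 185 on the vehicle arrays and 170, 171 and 101 on the dimmer GSK-J4 arrays, so that the direction appeared only after normalization between the arrays.

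Pcdha11, the alpha gene with the largest negative difference, had signals of 6, 5.86 and 5.76 on the vehicle and 5.68, 5.58 and 5.71 on the GSK-J4 arrays. The groups did not overlap, by a margin of 0.04 between the nearest arrays. The difference was -0.21 (SE 0.09, adjusted p = 0.14 by limma, exact permutation p = 0.1), and it was -0.38 (adjusted p = 0.032) with 75th percentile scaling and -0.41 (adjusted p = 0.041) with the GC trend removed, where it passed, but -0.1 (adjusted p = 0.35) with another background correction, normexp. Pcdha4 had signals of 7.3, 7.32 and 7.01 against 7.67, 7.66 and 6.18. Its replicates 1 and 2 of the GSK-J4 group lay above and its replicate 3 below all vehicle arrays, which left a difference of -0.04 with a 95% interval from -1.09 to 1.01. Pcdha8 and Pcdha12 differed by -0.06 and 0.2, with overlapping groups. The records that the files list for the Pcdha8 probe include Pcdha7 and transcripts of other names, and those for the Pcdha4 probe include a transcript of another name, so neither value is that of its gene alone.

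Pcdhac2, the second C-type gene of the alpha cluster, had a pair of probes, and for each of them the files list records of Pcdha4, Pcdha9, Pcdhac1 and Pcdhac2. Such a probe reads a stretch that these transcripts share, so it follows the summed output of the cluster rather than 1 gene. The brighter probe had log2 signals of 12.47, 12.49 and 12.42 on the vehicle and 12.38, 12.32 and 12.51 on the GSK-J4 arrays. The other had 12.41, 12.43 and 12.26 against 12.42, 12.68 and 12.36. Both sets of arrays overlapped. The brighter probe differed by -0.06 (SE 0.08, adjusted p = 0.61 by limma) with a 95% interval from -0.24 to 0.13. The other probe differed by 0.12 (SE 0.11, adjusted p = 0.48 over all probes). With 75th percentile scaling both differences were positive (0.08 and 0.26).

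In the beta cluster, 20 of 22 genes were tested and 1 was called. Pcdhb16 fell with GSK-J4. Its log2 signals were 9.21, 9.22 and 9.09 on the vehicle arrays and 8.94, 8.78 and 8.73 on the GSK-J4 arrays (probe at positions 37642126 to 37642185). Every GSK-J4 array lay below every vehicle array, with 0.15 between the nearest. The difference was -0.36 (SE 0.08, a fold of 0.781), with an adjusted p of 0.043 by limma and an exact permutation p of 0.1. The direction was kept with every alternative, between -0.42 and -0.27, but the call was lost whenever any single array was left out (adjusted p between 0.053 and 0.14), without vehicle replicate 1 among them (-0.34, adjusted p = 0.11), and, among other alternatives, when a trend on probe GC content was removed (-0.27, adjusted p = 0.1).

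Other beta genes differed in both directions without passing the adjusted test. Pcdhb7 had signals of 9.72, 9.8 and 9.87 on the vehicle and 9.52, 9.64 and 9.52 on the GSK-J4 arrays, and the groups did not overlap. Its difference was -0.23 (SE 0.07, adjusted p = 0.085 by limma, exact permutation p = 0.1), but only -0.04 (adjusted p = 0.69) once the GC trend was removed. Pcdhb15 had signals of 7.82, 7.45 and 7.64 against 7.47, 7.17 and 7.29, with an overlap of the nearest arrays. Its difference was -0.32 (SE 0.13, adjusted p = 0.13), with 75th percentile scaling -0.49 (adjusted p = 0.039) and with normexp -0.2 (adjusted p = 0.14). Pcdhb4, with the largest positive difference among beta genes measured on all arrays, had signals of 7.46, 7.64 and 7.76 against 7.79, 7.96 and 7.86. The GSK-J4 arrays were all higher, and the difference was 0.25 (SE 0.1, adjusted p = 0.14), which became 0.09 (adjusted p = 0.57) with 75th percentile scaling. Pcdhb3 lay at 9.12, 9.11 and 9.12 on the vehicle arrays and at 9.4, 9.18 and 9.23 on the GSK-J4 arrays, a difference of 0.16 (SE 0.08, adjusted p = 0.21) with groups that did not overlap, between 0.07 (normexp) and 0.35 (GC trend removed) with other processing. Pcdhb2, which was detected on 2 of 3 GSK-J4 arrays, had all GSK-J4 arrays higher (4.63, 4.65 and 4.44 against 5.97, 4.79 and 5.05), and its adjusted p was 0.17.

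The remaining beta genes had groups that overlapped. Pcdhb21 lay at 10.12, 10.27 and 10.28 on the vehicle and at 10.4, 10.15 and 10.29 on the GSK-J4 arrays, with a difference of 0.06 and a 95% interval from -0.17 to 0.28. Pcdhb9 and Pcdhb10 had narrow intervals, from -0.18 to 0.18 and from -0.13 to 0.24. The differences of Pcdhb12, Pcdhb17, Pcdhb18, Pcdhb20 and Pcdhb22 were between 0.03 and 0.23, that of Pcdhb5 was 0 and those of Pcdhb14 and Pcdhb8 were -0.1 and -0.12. None of these intervals excluded 0.

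For Pcdhb6 and Pcdhb13 a single array set the value. The brighter Pcdhb6 probe had signals of 9.71, 9.72 and 9.7 on the vehicle arrays and of 9.86, 6.69 and 9.13 on the GSK-J4 arrays. Replicate 2 was far below the rest, and the groups overlapped. The difference, the largest negative one among members measured on all arrays, was -1.15 (SE 0.8, adjusted p = 0.34 by limma) and -0.22 without GSK-J4 replicate 2. A second Pcdhb6 probe had signals of 6.67, 7.1 and 6.85 against 7.25, 6.86 and 7.51, without a low value on replicate 2, and its difference was 0.33 (SE 0.2, adjusted p = 0.27 over all probes). The pair of probes thus gave opposite signs, neither of them called. Pcdhb13 had signals of 7.28, 7.83 and 7.41 against 7.85, 7.84 and 6.3, with GSK-J4 replicate 3 below all other arrays, and a difference of -0.18 with a 95% interval from -1.31 to 0.94.

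**Figure D3:**
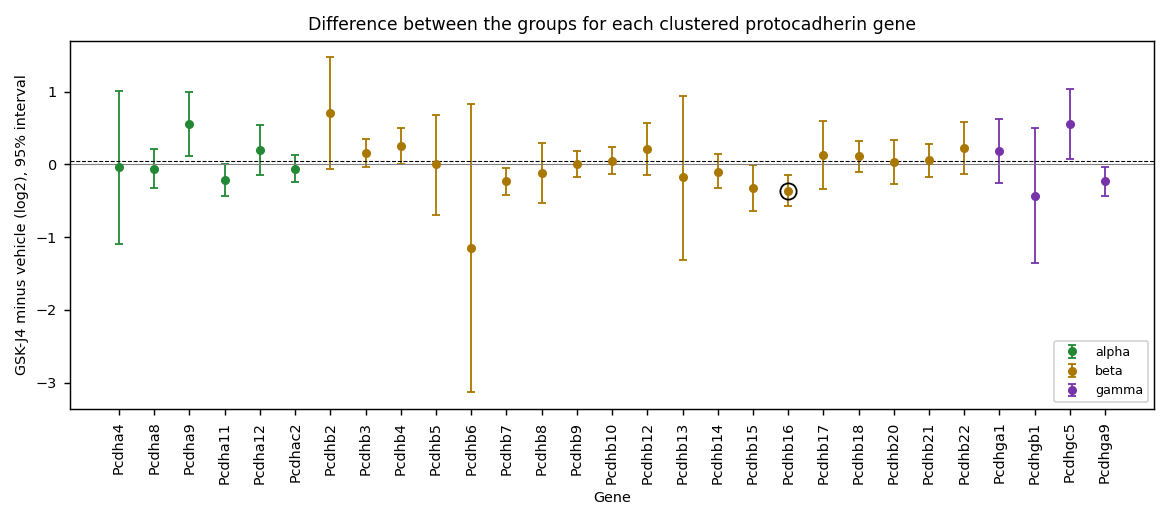
Difference between the groups (y axis, GSK-J4 minus vehicle in log2) for each tested gene but Pcdhb19, for which no fold is given (x axis), with the 95% interval from limma as bars. The dashed line is the median over all genes tested (0.04) and the ring marks the called gene, Pcdhb16 at -0.36.

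In the gamma cluster 4 of 7 genes were tested, and 0 were called by limma and 0 by the methods' t-test after adjustment. At an unadjusted p of 0.05 by limma 1 was higher and 1 lower, beside 4566 and 3523 of all 22107 genes. Pcdhgc5, the C-type gene at the end of the cluster, had log2 signals of 4.62, 4.45 and 4.47 on the vehicle arrays and of 4.81, 4.89 and 5.49 on the GSK-J4 arrays. These are among the low signals that still counted as detected, and every GSK-J4 array lay above every vehicle array. The difference was 0.55 (SE 0.19, 1.46-fold, adjusted p = 0.1 by limma, exact permutation p = 0.1), 0.12 (adjusted p = 0.46) with normexp, and 0.33 (adjusted p = 0.075) without GSK-J4 replicate 3. Before normalization the signals were 34.5, 34 and 30.2 on the vehicle and 19.8, 21.8 and 28.8 on the GSK-J4 arrays. Pcdhga1, which was detected on 2 of 3 GSK-J4 arrays, lay between 4.18 and 4.67 in the vehicle and between 4.33 and 4.81 in the GSK-J4 group. Pcdhgb1, detected on 1 GSK-J4 array, lay between 4.1 and 4.52 and between 3.21 and 4.69. Both genes had overlapping groups.

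The probes with the name Pcdhga9 read the shared part of the gamma transcripts, since for both of them the files list records of Pcdhga1, Pcdhga5, Pcdhga6 and Pcdhga9, and both lie downstream of the Pcdhgc5 probe, at positions 37999725 and 38001378. The brighter probe had log2 signals of 15.64, 15.54 and 15.57 on the vehicle arrays and of 15.3, 15.29 and 15.47 on the GSK-J4 arrays, none of them saturated. The other had 9.11, 8.67 and 8.47 on the vehicle and 9.56, 9.27 and 9.41 on the GSK-J4 arrays. The GSK-J4 arrays were thus all lower on the first and all higher on the second. The first differed by -0.23 (SE 0.08, adjusted p = 0.093 by limma) and the second by 0.66 (SE 0.18, adjusted p = 0.059 over all probes), each with an exact permutation p of 0.1. With 75th percentile scaling the sign of the first turned to 0.19 (adjusted p = 0.12) while the second stayed at 0.61, and with the GC trend removed they were -0.43 (adjusted p = 0.032) and 0.6. The probes also lay far apart in brightness, with vehicle means of 15.59 and 8.75, and how well each follows the summed output of the gamma cluster was not tested. The values thus gave no direction that both probes and every scaling shared. The mean of both probes differed by 0.21 (adjusted p = 0.23).

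**Figure D4:**
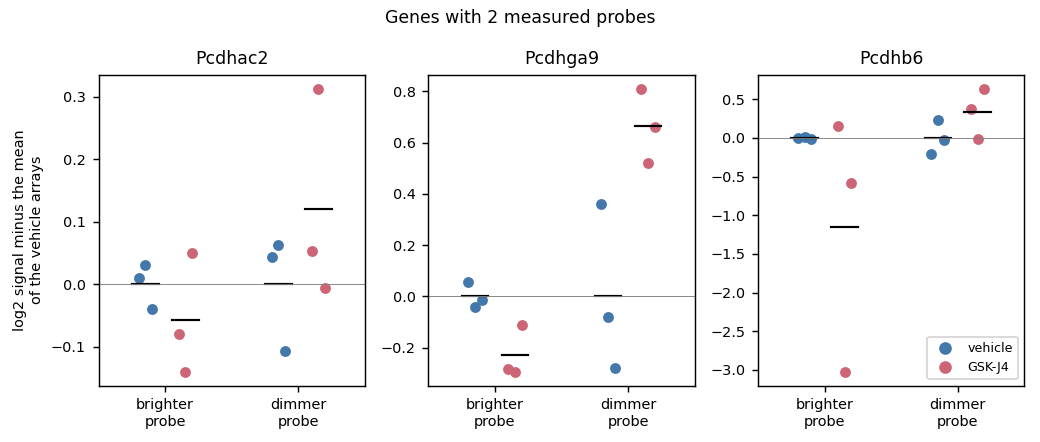
Log2 signal on each array as the difference from the mean of the vehicle arrays (y axis) for the brighter and the dimmer probe (x axis) of Pcdhac2, Pcdhga9 and Pcdhb6, vehicle in blue, GSK-J4 in red and group means as black lines, with a y scale of its own for each gene. The probes of Pcdhga9 differ in opposite directions (-0.23 and 0.66), and the low point of the brighter Pcdhb6 probe is GSK-J4 replicate 2. The y axis does not show the gap in brightness between probes, such as vehicle means of 15.59 and 8.75 for Pcdhga9.

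The spread between replicates differed between the groups. Among the 25 members measured on all arrays, the median SD was 0.078 in the vehicle and 0.15 in the GSK-J4 group (n = 3 each), and the SD was larger in the GSK-J4 group for 18 of 25 genes (72%). Over all genes measured on all arrays the medians were 0.1 and 0.13, and the SD was larger with GSK-J4 for 60.2%. Values spanned more than 1 on the log2 scale within the GSK-J4 group for 3 of these members (Pcdha4, Pcdhb6 and Pcdhb13, 12%), beside 5.07% of all genes. Within the vehicle group they did so for 0 members, beside 706 of the 20210 genes measured on all arrays. The low array was GSK-J4 replicate 3 for Pcdha4 and Pcdhb13 and replicate 2 for Pcdhb6.

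The clusters also differed in the base composition of their probes, which the rule did not use. The median GC content of the tested probes was 35.8% in the beta cluster, 46.7% in the alpha and gamma clusters and 43.3% over all genes. Once each array was corrected for its trend of signal with GC, the median difference of the beta cluster changed from 0.01 to 0.17, while that over all genes stayed at 0.04. For the 17 beta genes measured on all arrays, the median log2 signal was then 8.05, 8.03 and 8 on the vehicle and 8.34, 8.29 and 8.12 on the GSK-J4 arrays, without overlap. Without this step it was 8.09, 8.07 and 8.06 against 8.23, 7.96 and 8.04, with overlap. With 75th percentile scaling the median difference of the beta cluster was -0.13. The sign of the median of the beta cluster therefore depended on the scaling.

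The non-clustered protocadherins are single genes outside the 3 clusters with related extracellular parts, and the probes of Pcdh1 lie on chromosome 18 as well, beyond the gamma cluster. Of 13 on the array 12 were tested, and limma called 0, beside 9.02% of all genes called higher and 7.8% lower. At an unadjusted p of 0.05 by limma 1 was higher and 1 lower, beside 4566 and 3523 of all 22107 genes. The methods' t-test gave 0 after adjustment, beside 44 higher and 27 lower of all 22107 genes. The median difference was 0.03. Pcdh19, an adhesion protein of neurons whose loss causes an epilepsy in humans, had signals of 12.91, 13.05 and 13.05 on the vehicle and 12.49, 12.86 and 12.4 on the GSK-J4 arrays, and all the latter were lower. The difference was -0.42 (SE 0.14, adjusted p = 0.087), and -0.27 (adjusted p = 0.21) with 75th percentile scaling, but without GSK-J4 replicate 2 it was -0.56 and passed (adjusted p = 0.031). Pcdh1 had signals of 8.88, 8.94 and 8.67 against 9.05, 9.02 and 9.15, all higher with GSK-J4, and a difference of 0.25 (SE 0.1, adjusted p = 0.13), which was 0.54 and passed (adjusted p = 0.019) as the mean of its probes but was 0.14 (adjusted p = 0.38) with normexp.

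Of 24 genes that act on the promoters of the clusters or on DNA methylation and chromatin there, all were tested, 1 was called higher and 2 lower, beside the 9.02% and 7.8% of all genes. Its median difference was -0.03. Dnmt1, the maintenance DNA methyltransferase, rose by 0.64 on the log2 scale (SE 0.09, adjusted p = 0.015), from 8.4, 8.46 and 8.4 to 9.18, 8.93 and 9.07, and by 0.39 (adjusted p = 0.038) with the GC trend removed. Smchd1, a chromatin protein that acts on the clusters in mice, fell by 0.46 (SE 0.08, adjusted p = 0.025), from 11.88, 11.87 and 11.93 to 11.32, 11.56 and 11.43. For both the GSK-J4 arrays lay apart from the vehicle arrays. Pds5b, a cohesin cofactor, fell by 0.46 (SE 0.12, adjusted p = 0.049), from 10.3, 10.53 and 10.59 to 10.03, 10.15 and 9.86. All 3 calls were lost when any 1 of the vehicle arrays was left out (adjusted p of Dnmt1 0.058 to 0.064, of Smchd1 0.07 to 0.085, of Pds5b 0.068 to 0.14), and that of Pds5b, among other alternatives, with the GC trend removed (-0.27, adjusted p = 0.15). Of 16 alternatives followed for these genes, the call was lost with 12 for Pds5b, 7 for Smchd1 and 5 for Dnmt1. Tet2, an enzyme that oxidizes methylated cytosine, had the largest negative difference of the list, -0.84 (SE 0.27, adjusted p = 0.086), with GSK-J4 replicate 3 at 8.91 and the other two at 9.92 and 9.83. Without that array it was -0.52 and passed (adjusted p = 0.032 by limma). Another Tet2 probe differed the other way, by 0.16 (SE 0.08, adjusted p = 0.21 over all probes), with all GSK-J4 arrays higher. These are not all the kept probes of Tet2, and the mean over all of them was -0.52 and passed (adjusted p = 0.018 by limma). Ctcf, which binds the promoters of the clusters, differed by -0.11 (SE 0.08, adjusted p = 0.36), with signals of 11.38, 11.53 and 11.53 against 11.31, 11.47 and 11.34.

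Of 17 genes that work downstream of the cytoplasmic tails or cleave them, all were tested, and 0 were called higher and 1 lower by limma, again beside 9.02% and 7.8% of all genes. At an unadjusted p of 0.05 there were 1 and 4 by limma, beside 4566 and 3523 of all 22107 genes. After adjustment the methods' t-test gave 0, beside 44 higher and 27 lower of all 22107 genes. Before adjustment it gave 0 higher and 2 lower, beside 3496 and 2557 of all genes. The median difference was -0.17, but 0.02 with 75th percentile scaling. Abi1, a subunit of the WAVE complex that controls actin and binds the tails, fell by 0.43 (SE 0.07, adjusted p = 0.023), from 11.83, 11.93 and 11.92 to 11.36, 11.5 and 11.52. Without vehicle replicate 1, 2 or 3 its adjusted p was 0.061, 0.088 or 0.081, and with the GC trend removed the difference was -0.24 (adjusted p = 0.087). Its call was lost with 7 of 16 alternatives. Cyfip2, another subunit, had a difference of -0.49 (SE 0.27, adjusted p = 0.25) with overlapping groups, and of -0.22 without GSK-J4 replicate 2. Ptk2, the focal adhesion kinase that the alpha and gamma tails inhibit, had the largest positive difference, 0.24 (SE 0.09, adjusted p = 0.12), with all GSK-J4 arrays above the vehicle arrays, but as the mean of its probes it was -0.02 (adjusted p = 0.88).

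**Figure D5:**
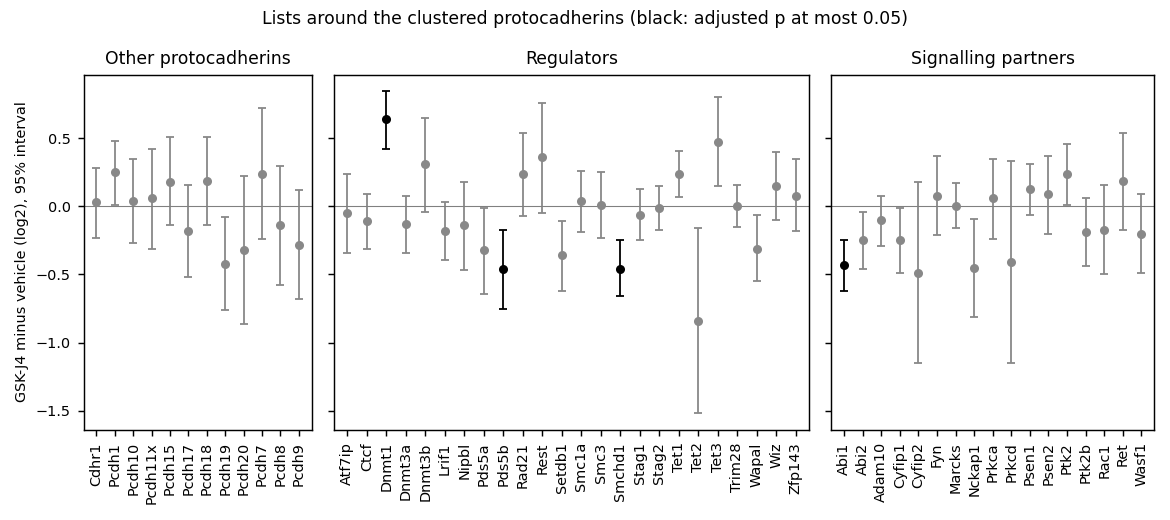
Difference between the groups (y axis, GSK-J4 minus vehicle in log2, with the 95% interval from limma) for the tested genes of 3 lists (x axis): other protocadherins, regulators of the clusters and signalling partners. Black points passed an adjusted p of 0.05, which were Abi1 and 3 regulators, of which Dnmt1 was higher (0.64) and Pds5b and Smchd1 were lower.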

How the data were processed

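For each array the authors deposited a background-corrected intensity and detection flags for each spot, from Agilent Feature Extraction 10.7.1.1, and a table of log2 values for 56745 probes made, by their methods, with quantile normalization in GeneSpring. The medians of its 6 columns were 5.74 and its sorted values differed by at most 0.00424 between columns. With 0 columns unassigned, its values for the tested members differed from those used here by at most 0.0023, and it served as an alternative. Intensities were read in R 4.3.3 (data.table package, version 1.17.8). Control and flagged spots were dropped, no probe was saturated, spots of a probe were averaged on the log2 scale and quantile normalized. Probes without a value on an array were left out. Kept were 34421 probes of 56605, well above background on all 3 arrays of a group, and for each of 22107 gene names the probe with the highest mean, tested with lmFit and eBayes of limma 3.58.1, two-sided, without covariates. The fit was also run on simulated arrays with independent noise, the same spread in both groups and no slide effect. The real arrays differ in these points, so that run says nothing about single calls. P-values of second probes were adjusted over all kept probes. The number of arrays and their signal over background limit the precision.

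Named members were those past an adjusted p of 0.05, the C-type genes, for each cluster the brightest probe and the largest difference in each direction among genes measured on all arrays, probes measured in 1 group only, and genes whose probes disagree. Members whose groups did not overlap or that passed unadjusted tests were added. Members and lists were chosen with earlier results of these data known. Alternatives were other scalings, background corrections, filters, probe rules, tests and thresholds, a replicate block, removal of a GC trend (lowess, span 30%) and each array left out. Same-numbered arrays deviated together with correlations of 0.00741, 0.0258 and 0.0817, so the numbers were not taken as pairs. Sequences of members were not used here, and 1 gene of the regulators is not reported here.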

Additional observations from a re-analysis of the deposited data

How the results depend on the processing

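Pcdhb16, the member called lower, kept its direction with all 18 alternatives and its call with 6. The number of members called lower was 1 and became 3 with 75th percentile scaling (Pcdha11, Pcdhb15 and Pcdhb16), 2 with the GC trend removed (Pcdha11 and Pcdhga9, without Pcdhb16), and 0 without the filter on dim probes, with the weaker detection flag, with the methods' t-test (unadjusted p: 0 higher, 3 lower) and with the thresholds of the study. With a replicate block, in which arrays of the same number were paired, limma called 0 members lower (unadjusted p: 1 higher, 2 lower), 0 of the regulators and partners in either direction, and 0 genes in all (unadjusted p: 3971 higher, 3138 lower). Leaving out 1 array gave 0 to 1 members higher (Pcdha9 without GSK-J4 replicate 3) and 0 lower.

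Over all genes, 1993 higher and 1724 lower became 3358 higher with 75th percentile scaling, 1202 higher without the filter, 44 and 27 with the methods' t-test, 1071 higher with the thresholds of the study, 1193 and 1128 with the GC trend removed, 2894 lower with every probe on its own, and from 1 (without vehicle replicate 3) to 1386 higher and from 11 to 1263 lower with 1 array left out. Without vehicle replicate 1, 18 and 29 were called, and without vehicle replicate 2, 19 and 46.

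Median differences moved beyond 1 SD between arrays for the beta cluster with 75th percentile scaling (-0.13) and the GC trend removed (0.17). For the gamma cluster they were 0.19 without the filter and with every probe, 0.16 for genes measured on all arrays, 0.37 with the weaker flag and 0.20 with the mean of probes. With the weaker flag Pcdhga10 entered through the GSK-J4 group alone, where it was higher. With 1 array left out the median differences lay between -0.09 and 0.17 in alpha (0.17 without GSK-J4 replicate 3), -0.04 and 0.06 in beta, and -0.07 and 0.05 in gamma.

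The regulators, 1 higher and 2 lower, became 2 higher with 75th percentile scaling, every probe and the GC trend removed, 0 higher with the methods' t-test, and lower 1 without the filter, with the weaker flag, with the thresholds of the study and with the GC trend removed, 4 with the mean of probes, 5 with every probe and 0 with the methods' t-test. With 1 array left out they were 0 to 2 higher and 0 to 1 lower. The partners, 1 lower, became 2 with the mean of probes, 5 (and 1 higher) with every probe, and 0 with the methods' t-test, the thresholds of the study, and the GC trend removed, and 0 to 1 with 1 array left out. Other protocadherins had 1 higher with the mean of probes, 2 higher and 1 lower with every probe, and 0 to 1 lower with 1 array left out. The cause of these changes was not tested.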

Other observations

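Genes that lie between or beside the clusters were measured too and are no members. Diap1, an actin regulator that follows the gamma cluster, had log2 signals of 12.55, 12.45 and 12.41 on the vehicle and 12.59, 12.67 and 12.79 on the GSK-J4 arrays, with a difference of 0.21 (SE 0.08, adjusted p = 0.13 by limma). All GSK-J4 arrays were higher, by 0.04 between the nearest. Its other probes had overlapping groups and differences of 0.22 and -0.12 (adjusted p = 0.17 and 0.74 over all probes). Taf7, a subunit of TFIID that lies between the beta and gamma clusters, had signals of 5.75, 6.84 and 7.04 against 7.71, 6.82 and 6.99, with vehicle replicate 1 below the rest, and a difference of 0.63 (SE 0.41, adjusted p = 0.31). Slc25a2, a mitochondrial carrier, lay between 4.32 and 4.69 on the vehicle and between 4.51 and 5.39 on the GSK-J4 arrays (adjusted p = 0.32). None of these 3 neighbours was called.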
